A study of Homo sapiens with 6 samples.

Results

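The UDP-glucuronosyltransferases (UGTs) described here are 10 genes of the deposited table, chosen by gene name among its 26184 rows: UGT1A1, UGT1A6, UGT1A9, UGT2A3, UGT2B4, UGT2B7, UGT2B10, UGT2B11, UGT2B15 and UGT2B17. RNA-seq compared Huh7 P, the parental line of human hepatocellular carcinoma cells, with Huh7 LR, the lenvatinib-resistant line derived from it. Huh7 P cells were untreated, whereas Huh7 LR cells had been exposed to the kinase inhibitor lenvatinib, a drug for advanced liver cancer, at 1 μM rising to 20 μM over 10 months. Both lines are labelled as wild type in genotype. Each line had 3 independent samples, and all Huh7 LR samples came from the same derived line, so that the samples do not show how another resistant line would behave. The resistant line was kept in 20 μM lenvatinib, and whether the drug was present in the cultures used for RNA is not stated separately.

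UGTs are enzymes of the endoplasmic reticulum that attach glucuronic acid, taken from UDP-glucuronic acid, to lipophilic molecules such as bilirubin, bile acids, steroid hormones and many drugs. The glucuronides are more soluble in water and are exported from the hepatocyte by transporters into bile or blood. The liver is a main site of this reaction. The UGT1A enzymes come from a single locus in which alternative first exons are joined to the same downstream exons, whereas each UGT2B enzyme has a gene with its own set of exons.

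The way these genes share sequence sets what a count per gene can show, so the sequences that carry it are given first. At the UGT1A locus (chr2:233617645-233773310, GRCh38, plus strand), the transcripts of UGT1A1, UGT1A6 and UGT1A9 differ in the first exon and are joined to the same second exon at chr2:233767034-233767165. The stretches below, from the GENCODE release 29 transcripts, show the last 45 bases of each first exon in lower case and the first 45 bases of the shared exon in capitals, all of them coding.
UGT1A1: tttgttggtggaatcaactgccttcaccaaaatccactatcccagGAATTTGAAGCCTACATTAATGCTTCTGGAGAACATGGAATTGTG
UGT1A6: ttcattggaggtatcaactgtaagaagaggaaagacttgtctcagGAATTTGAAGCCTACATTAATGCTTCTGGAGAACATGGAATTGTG
UGT1A9: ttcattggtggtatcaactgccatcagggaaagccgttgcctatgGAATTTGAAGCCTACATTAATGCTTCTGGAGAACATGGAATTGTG
Within the transcripts compared here, only reads that reach to the left of the capitals can be assigned to one of these genes. Other transcripts can add exonic bases that are not shared. UGT1A1 has 2 coding transcripts with 4467 exonic bases, of which 1649 are shared with UGT1A6 and 1478 with UGT1A9. The shared exons cover 1478 of the 2382 bases of the UGT1A1 transcript compared. Of all stretches of 100 bases in the transcript, 60.5% for UGT1A1, 58.2% for UGT1A6 and 61.6% for UGT1A9 occur unchanged in the transcript of another UGT gene. The values of the single UGT1A rows are therefore uncertain, and their sum is given beside them.

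The other 7 genes lie in the UGT2 cluster (chr4:68537184-69653249, GRCh38) each as a gene of its own. Of their transcripts, UGT2B15 and UGT2B17 are the most alike, with 96.5% identical coding bases and 55 differences in 1590. The first 120 coding bases of both are shown because they let a reader see how few positions tell the pair apart, and capitals mark the 5 differences.
UGT2B15: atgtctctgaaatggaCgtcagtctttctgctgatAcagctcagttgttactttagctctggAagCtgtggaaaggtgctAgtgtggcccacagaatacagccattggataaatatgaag
UGT2B17: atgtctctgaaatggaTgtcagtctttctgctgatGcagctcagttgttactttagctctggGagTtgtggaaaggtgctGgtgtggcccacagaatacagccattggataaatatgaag
In both genes, 12.7% of stretches of 100 bases occur unchanged in the other. The same share was 2.73% for UGT2B10 and 3.37% for UGT2B11, and 0 of the stretches of UGT2A3, UGT2B4 and UGT2B7 occurred in another UGT gene. Reads can therefore be split between UGT2B15 and UGT2B17 by the authors' counting, and their sum is also given.

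All UGT2 members tested were higher in Huh7 LR, and UGT1A1 and UGT1A6 did not pass the test. The rise was largest for UGT2B15 and UGT2B17, which encode the main androgen-conjugating enzymes, intermediate for UGT2B10, UGT2B11 and UGT2B4, and smallest for UGT2A3 and UGT2B7. Of the 10 genes, 9 passed the filter on low counts and were tested, and UGT1A9 did not pass it. The lines were compared by the quasi-likelihood test of edgeR on the raw counts of all 17531 rows with enough reads. A row was called when its Benjamini-Hochberg adjusted p was under 0.001 and it changed more than 2-fold. By this rule 6 of the 9 were called higher and 0 lower, where 4.43% of all rows tested were called higher and 1.78% lower. With no fold threshold and an adjusted p below 0.05, 7 were higher and 0 lower, against 23.3% and 22.4% of all rows tested. The median log2 fold change of the 9 genes was 1.68, and that of all rows tested was 0.00. In 7 of the 9, all Huh7 LR libraries lay above all Huh7 P libraries, as in 28.2% of all rows. UGT2B17 entered the test only through its counts in Huh7 LR, so its place in these numbers follows in part from the filter. The members were not chosen independently of these data, and no test of the group as such was made. In RNA from whole cultures, more cells expressing a gene and more RNA per cell cannot be told apart.

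**Figure D1:**
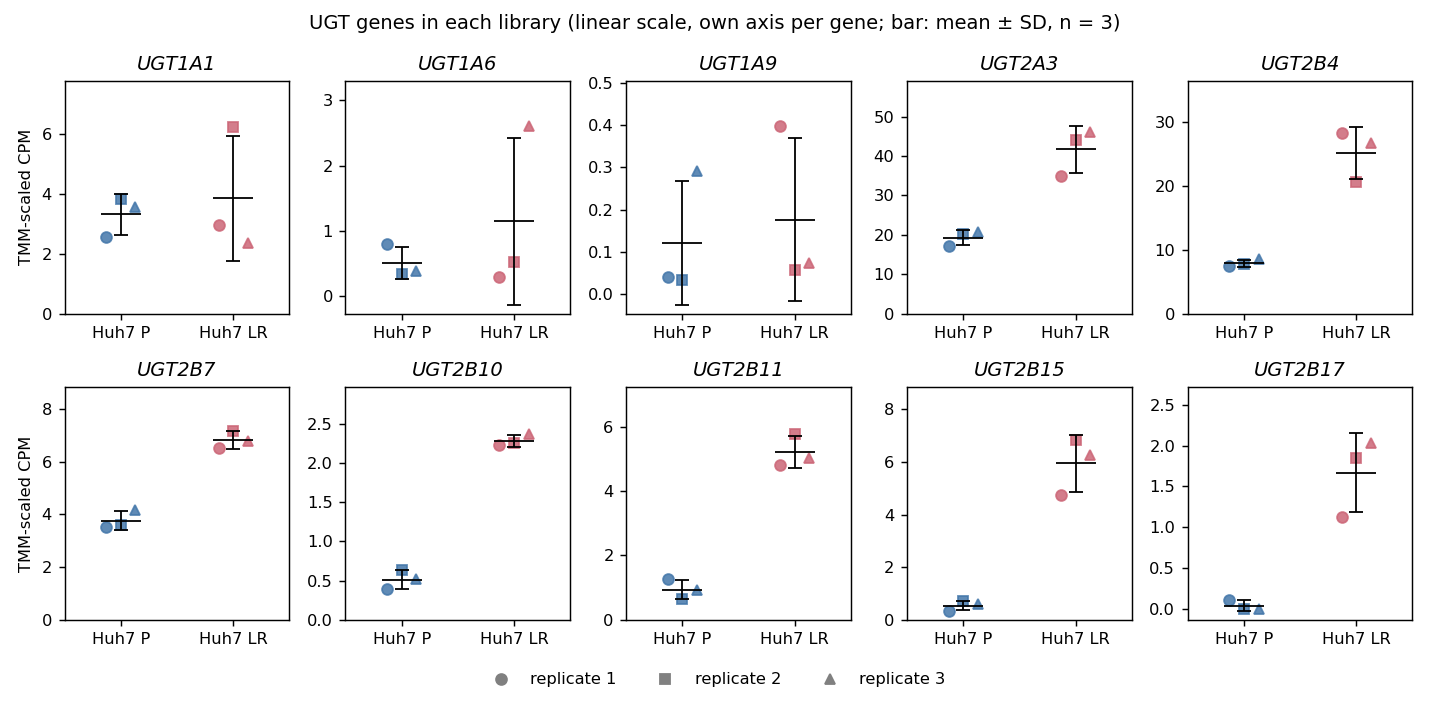
The 10 UGT genes in each library, in CPM (counts relative to the library total after TMM scaling), with a linear axis of its own for each gene; points are the 3 libraries of Huh7 P (blue) and of Huh7 LR (red), the symbol gives the replicate, and bars give the mean ± SD. The 3 Huh7 LR libraries lie above the 3 Huh7 P libraries in UGT2A3 and in the 6 UGT2B genes, and the lines overlap in UGT1A1, UGT1A6 and UGT1A9.

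UGT2B15 (ENSG00000196620, chr4:68646630-68670628, minus strand), whose enzyme conjugates dihydrotestosterone and some benzodiazepines, was counted 24, 43 and 39 times in parental and 308, 479 and 427 times in resistant cells. The lines did not overlap, and the lowest Huh7 LR library was several times above the highest Huh7 P library. Mean CPM, counts relative to the library total after TMM scaling, given here and below as mean ± SD over n = 3 libraries, was 0.542 ± 0.187 in parental and 5.94 ± 1.09 in resistant cells. On the log2 scale the rise was 3.46 ± 0.26 (estimate ± standard error, as for all fitted changes below; edgeR adjusted p = 2.65e-06).

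UGT2B17 (ENSG00000197888, chr4:68537184-68568527, minus strand), an enzyme for testosterone and other steroids, was counted 8, 0 and 0 times in parental and 73, 130 and 139 times in resistant cells. It was thus close to absent in the parental line, where a count of 0 still allows up to 3 counts, or 0.0486 CPM in Huh7 P replicate 2 and 0.0459 CPM in replicate 3, a limit for counting error alone. Mean CPM was 0.0371 ± 0.0643 in parental and 1.67 ± 0.486 in resistant cells. The fitted log2 change of 5.33 ± 0.69 (edgeR adjusted p = 1.04e-04) rests on the 8 counts of Huh7 P replicate 1 and is poorly determined. Without that library, Huh7 P had no count. With that library kept at its 8 counts and the other two set to 3 counts each, the ratio of mean CPM, resistant over parental, was 24.3. Under the Wald test of DESeq2, its adjusted p was 0.00128, above the level of a call.

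In the reads of both genes together, UGT2B17 took 19.2% (95% exact Clopper-Pearson interval 15.3 to 23.5) in Huh7 LR replicate 1, 21.3% (18.2 to 24.8) in replicate 2 and 24.6% (21.1 to 28.3) in replicate 3. In Huh7 P replicate 1 its share was 25%, with an interval of 11.5 to 43.4, and in replicates 2 and 3 it was 0 of 43 and 0 of 39 reads, which allow up to 8.22% and 9.03% by the same method. These intervals cover counting error only. The summed pair went from 32, 43 and 39 counts to 381, 609 and 566 counts. Fitted as a single row, the pair rose by 3.72 ± 0.22 on the log2 scale (edgeR adjusted p = 6.48e-07), so that the rise of the pair does not depend on how reads were divided between them.

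UGT2B11 (ENSG00000213759, chr4:69199951-69214731, minus strand), a less studied member of the subfamily, was counted 90, 40 and 60 times in parental and 314, 404 and 343 times in resistant cells. Mean CPM was 0.940 ± 0.303 and 5.20 ± 0.498, a log2 rise of 2.46 ± 0.22 (edgeR adjusted p = 9.76e-06). UGT2B10 (ENSG00000109181, chr4:68815993-68831196, plus strand), which glucuronidates amines such as nicotine, was counted 28, 39 and 34 times in parental and 145, 158 and 162 times in resistant cells. Here mean CPM was 0.514 ± 0.121 and 2.28 ± 0.0792, with a log2 rise of 2.15 ± 0.23 (edgeR adjusted p = 3.16e-05). The Huh7 LR libraries of UGT2B10 were nearly equal, and in both genes the lines stayed apart.

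UGT2B4 (ENSG00000156096, chr4:69480165-69526014, minus strand), a liver enzyme for bile acids, was counted 532, 475 and 554 times in parental and 1842, 1438 and 1817 times in resistant cells. Mean CPM was 7.86 ± 0.548 and 25.1 ± 4.08, and the log2 rise was 1.68 ± 0.13 (edgeR adjusted p = 2.84e-06). Huh7 LR replicate 2 was the lowest of its line and still lay far above Huh7 P.

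UGT2A3 (ENSG00000135220, chr4:68928463-68951791, minus strand), which also acts on bile acids, had the highest FPKM in Huh7 P and was counted 1224, 1246 and 1349 times in parental and 2271, 3094 and 3139 times in resistant cells. Mean CPM was 19.3 ± 1.95 and 41.7 ± 5.99. The log2 rise of 1.11 ± 0.12 (edgeR adjusted p = 2.49e-05) was just past 2-fold, and the lines did not overlap. UGT2B7 (ENSG00000171234, chr4:69051363-69112987, plus strand), the enzyme of morphine and of many carboxylic acids, was counted 253, 223 and 272 times in parental and 424, 502 and 462 times in resistant cells. Mean CPM was 3.77 ± 0.344 and 6.81 ± 0.332. Its log2 rise of 0.86 ± 0.13 (edgeR adjusted p = 3.06e-04) was under 2-fold, so it was not called, although again no libraries overlapped.

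**Figure D2:**
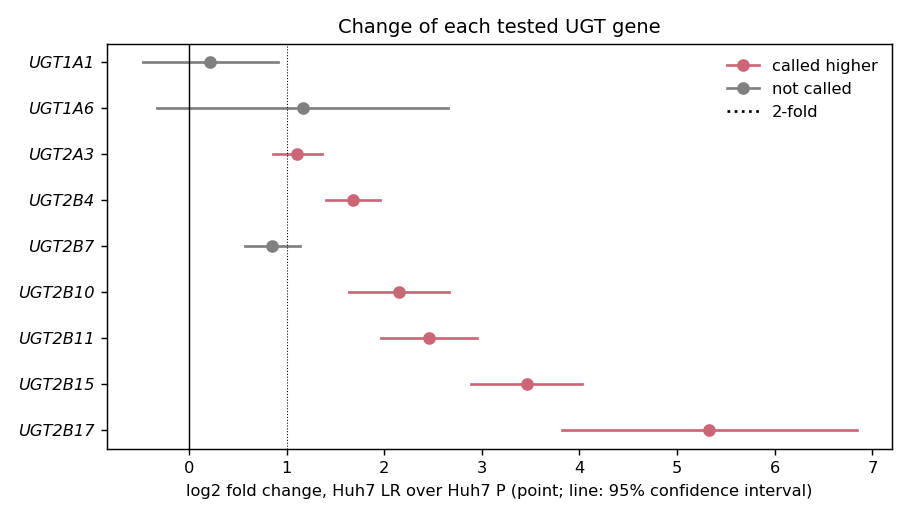
Fitted log2 fold change of the 9 UGT genes tested, Huh7 LR over Huh7 P, with 95% confidence intervals from edgeR; red points were called higher, grey points were not, and the dotted line marks 2-fold. The intervals of UGT1A1 (-0.47 to 0.91) and UGT1A6 (-0.33 to 2.66) include 0, and that of UGT2B7 (0.57 to 1.14) lies below those of UGT2B10 (1.64 to 2.67), UGT2B11 (1.97 to 2.95) and UGT2B15 (2.89 to 4.03).

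For UGT1A1, UGT1A6 and UGT1A9, the means of the lines differed by less than the SD among Huh7 LR libraries. UGT1A1 (ENSG00000241635, chr2:233760248-233773299, plus strand), the enzyme that conjugates bilirubin, was counted 183, 237 and 233 times in parental and 192, 438 and 161 times in resistant cells. Huh7 LR replicate 2 was high, and the other two lay within or below the range of Huh7 P. Mean CPM was 3.32 ± 0.679 and 3.85 ± 2.10. The log2 change of 0.22 ± 0.31 (edgeR adjusted p = 0.607) became -0.31 without Huh7 LR replicate 2.

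UGT1A6 (ENSG00000167165, chr2:233691607-233773300, plus strand), an enzyme for small planar phenols, was counted 57, 21 and 25 times in parental and 19, 37 and 178 times in resistant cells. Here Huh7 LR replicate 3 was high and the other two lay within or below the parental range. Mean CPM was 0.506 ± 0.251 and 1.14 ± 1.27, with a log2 change of 1.16 ± 0.68 (edgeR adjusted p = 0.187). It was -0.31 without Huh7 LR replicate 3 and 1.62 without Huh7 LR replicate 1, where the adjusted p from edgeR was 0.0365. UGT1A9 (ENSG00000241119, chr2:233671853-233773300, plus strand), which conjugates propofol and other phenols, was counted 3, 2 and 19 times in parental and 26, 4 and 5 times in resistant cells, with mean CPM of 0.122 ± 0.146 and 0.176 ± 0.193. It did not pass the filter on low counts.

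The high libraries of UGT1A1 and UGT1A6 were not the same, and UGT1A9 was highest in a further library. The 3 rows summed to 243, 260 and 277 counts in parental and 237, 479 and 344 counts in resistant cells, with mean CPM of 3.94 ± 0.484 and 5.17 ± 1.60. In CPM, Huh7 LR replicate 1 lay within the parental range and the other two lay above it. With the rows summed before the fit, the log2 change was 0.39 ± 0.21 (edgeR adjusted p = 0.153). A two-sided exact permutation test gave p = 0.3, where 0.1 is the smallest value that 3 samples against 3 allow. Without Huh7 LR replicate 1, it was 0.59 (edgeR adjusted p = 0.0166), and without Huh7 LR replicate 2 it was 0.15 (edgeR adjusted p = 0.559), so that the value of this sum depends on single libraries. With all 9 UGT1A rows of the table, the sums were 294, 280 and 288 counts in parental and 258, 479 and 368 counts in resistant cells. The log2 change was then 0.31 ± 0.18 (edgeR adjusted p = 0.191), 0.49 without Huh7 LR replicate 1 (edgeR adjusted p = 0.0197) and 0.11 without Huh7 LR replicate 2 (edgeR adjusted p = 0.613).

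The length implied by the authors' counts and FPKM values also varied between libraries for UGT1A1 and UGT1A6. It was taken as a gene's count divided by its FPKM and by the library total of the deposited counts. The library total that the authors used is not known, so the values serve for comparison between libraries and not as exact lengths. UGT2B15, with 1 coding transcript of 2077 bases, had 2218 to 2274 bases by this measure. For UGT1A6 the highest of these lengths was 1.77 times the lowest, 2739 bases in Huh7 P replicate 1 and 1551 bases in Huh7 LR replicate 1. For UGT1A1 it ranged from 2696 to 3695 bases, a ratio of 1.37. The ratio was between 1.02 and 1.04 for UGT2A3, UGT2B4, UGT2B7, UGT2B11 and UGT2B15, and 1.16 for UGT2B10. Of 15843 rows with at least 10 counts in each library, the median ratio was 1.05, and 15.1% exceeded 1.2.

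**Figure D3:**
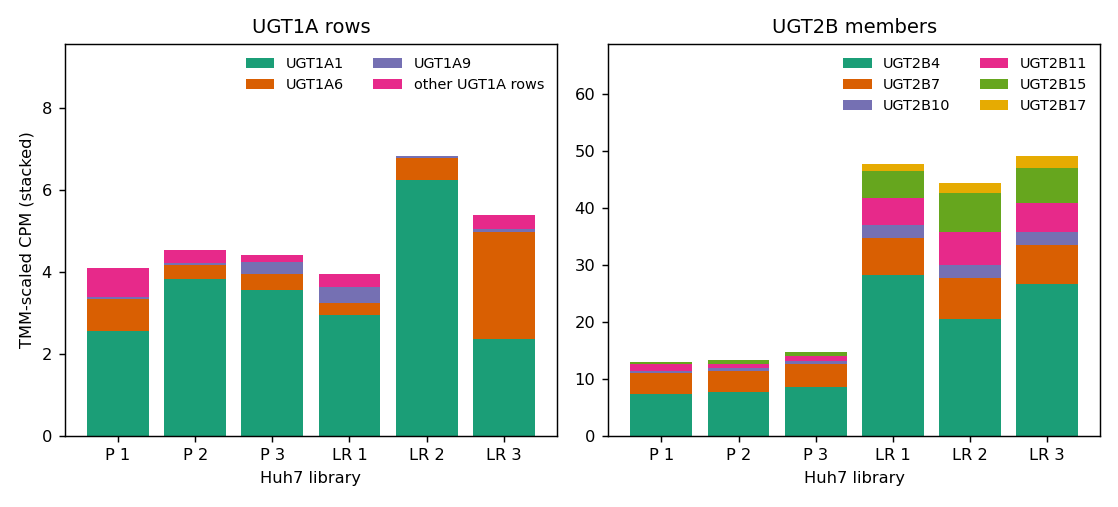
TMM-scaled CPM of the UGT1A rows (left) and of the 6 UGT2B members (right), stacked for each of the 6 libraries, with axes that differ between the panels. In the UGT1A panel UGT1A1 makes up most of every library except Huh7 LR replicate 3, where UGT1A6 makes up about as much as UGT1A1. The UGT2B total is between 13.0 and 14.7 CPM in the Huh7 P libraries and between 44.4 and 49.1 CPM in the Huh7 LR libraries.

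The 6 UGT2B members summed to 935, 820 and 959 counts in parental and 3106, 3111 and 3350 counts in resistant cells. Mean CPM of the sum was 13.7 ± 0.880 and 47.0 ± 2.40. Fitted as a single row, its log2 change was 1.78 ± 0.08, or 3.44-fold. For all 10 members together, mean CPM was 36.9 ± 3.11 and 93.9 ± 7.13, a log2 change of 1.35 ± 0.09. For both sums the lines did not overlap. They describe genes chosen with results of these data known, so no p is given for them. The genes of the UGT1A sums, of the UGT2B15 and UGT2B17 sum and of the shares below were chosen in the same way. The p values printed for those do not account for this choice.

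Levels of different genes can be compared only per length, for which the authors' FPKM values were used. In Huh7 P the order of the mean FPKM was UGT2A3 with 5.97 ± 0.552 (SD, n = 3), UGT2B4 with 3.51 ± 0.173, UGT2B7 with 1.83 ± 0.152 and UGT1A1 with 1.15 ± 0.305. These 4 genes did not overlap with each other in any parental library. Below them came UGT2B11 (0.409), UGT2B10 (0.251), UGT2B15 (0.236) and UGT1A6 (0.187), whose neighbours in this order overlapped, and UGT1A9 (0.0423) and UGT2B17 (0.0152). In Huh7 LR the order was UGT2A3 with 13.1 ± 1.81 FPKM (SD, n = 3), UGT2B4 with 11.4 ± 1.90, UGT2B7 with 3.40 ± 0.135, UGT2B15 with 2.67 ± 0.471 and UGT2B11 with 2.33 ± 0.207. UGT2A3 and UGT2B4 overlapped there, as did UGT2B15 and UGT2B11. UGT2B17 and UGT1A6 also overlapped, and UGT1A1 overlapped with UGT2B15, UGT2B11, UGT2B10, UGT2B17 and UGT1A6. They were followed by UGT1A1 (1.34), UGT2B10 (1.10), UGT2B17 (0.748), UGT1A6 (0.470) and UGT1A9 (0.0664).

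The genes can also be given as shares of their summed FPKM, which move against each other. UGT2A3 held 43.8 ± 1.30% of the members' summed FPKM (SD, n = 3) in Huh7 P and 35.7 ± 3.21% in Huh7 LR. The 6 UGT2B genes together held 46.1 ± 2.42% and 59.1 ± 4.19% (SD, n = 3). UGT2B15 held 1.18, 2.20 and 1.78% in parental and 6.18, 8.33 and 7.25% in resistant libraries. UGT2B7, although higher in Huh7 LR, went from 13.5 ± 0.658% to 9.27 ± 0.432% of the sum (SD, n = 3). The UGT1A genes had 10.1 ± 1.13% in Huh7 P and 5.12 ± 1.41% in Huh7 LR (SD, n = 3). In each of these 5 shares the lines did not overlap, and the two-sided exact permutation test gave p = 0.1 for each, the smallest it can give (0.133 after Benjamini-Hochberg adjustment over the 12 shares compared, of single genes and of subfamilies). The share of UGT2B4 was 25.9 ± 1.36% and 31.2 ± 5.98% (SD, n = 3), with overlapping lines (exact permutation test, p = 0.3). As parts of a whole, these shares are not independent of each other.

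**Figure D4:**
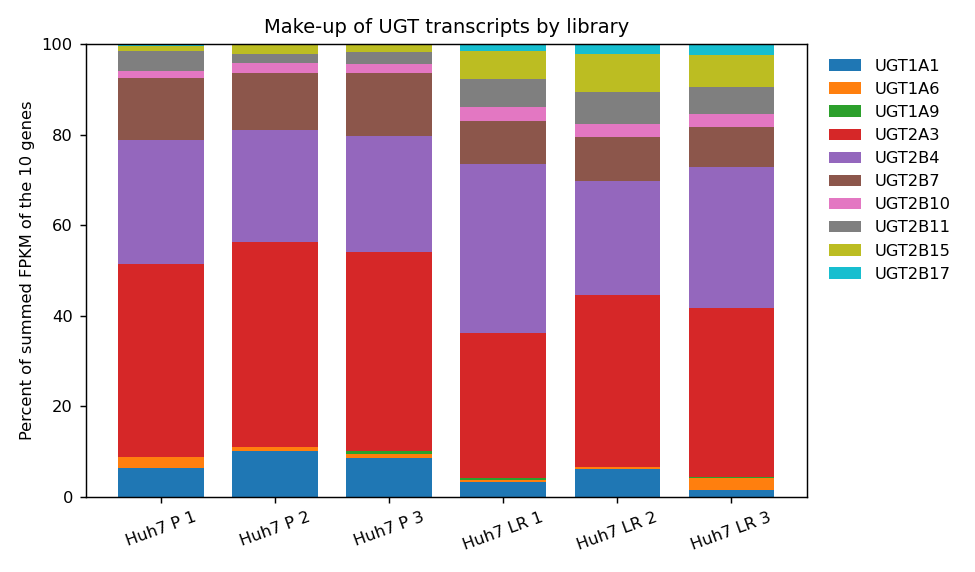
Percent of the summed FPKM of the 10 UGT genes held by each gene, one bar per library and without error bars. UGT2A3, UGT2B4 and UGT2B7 fill most of each bar, UGT2B15 widens from between 1.18 and 2.20% in Huh7 P to between 6.18 and 8.33% in Huh7 LR, and UGT1A1 narrows from a mean of 8.39% to one of 3.69%.

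The 7 members lie in a run along the UGT2 cluster, with UGT2B28 between them and UGT2A1 and UGT2A2 beside them. UGT2B28, another steroid-conjugating member of the subfamily, was counted 8, 0 and 3 times in parental and 6, 8 and 6 times in resistant cells and did not pass the filter on low counts. UGT2A1 had 3 counts in Huh7 P replicate 1 and 0 elsewhere, and UGT2A2 had 0 in all libraries. Beyond the UGT genes, 5 rows lie within 200 kb of the cluster. YTHDC1, which encodes a reader of methylated RNA, changed by -0.19 on the log2 scale (edgeR adjusted p = 0.0421) and SULT1E1 by -0.32 (adjusted p = 0.0226). SULT1B1 had 0.11 (adjusted p = 0.655) and did not pass. TMPRSS11E had no count, and AC108941.2 overlaps SULT1E1 on the same strand and had 54 counts or fewer in each library, with -0.69 on the log2 scale (edgeR adjusted p = 0.182).

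Promoter sequence was available from RefSeq for 8 of the 10 members, as 250 bases before and 50 bases from the start of the gene, and UGT2B4 and UGT2B17 had none in that table. Over the 250 bases before the start, UGT2B10 and UGT2B11 were 90.2% identical, UGT2B15 was 68.7% identical to UGT2B10 and 70.9% to UGT2B11, and UGT2B7 was 58.4 to 63.7% identical to these 3. The RefSeq start of UGT2B7 lies inside the gene as GENCODE draws it. The same 100 bases before the start are given below for each, 5′ to 3′ on the strand of the gene (GRCh38.p14), since they hold the AGGTCA matches of the first 3 genes and none in UGT2B7. Capitals mark AGGTCA, the core of the elements that nuclear receptors bind.
UGT2B10 (chr4:68815769-68815868, plus strand): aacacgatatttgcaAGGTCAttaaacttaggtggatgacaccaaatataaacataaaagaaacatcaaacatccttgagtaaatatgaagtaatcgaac
UGT2B11 (chr4:69214874-69214973, minus strand): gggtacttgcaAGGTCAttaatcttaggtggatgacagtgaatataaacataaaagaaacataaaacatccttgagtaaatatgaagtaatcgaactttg
UGT2B15 (chr4:68670778-68670877, minus strand): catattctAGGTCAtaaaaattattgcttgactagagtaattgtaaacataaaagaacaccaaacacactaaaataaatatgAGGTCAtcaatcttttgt
UGT2B7 (chr4:69096249-69096348, plus strand): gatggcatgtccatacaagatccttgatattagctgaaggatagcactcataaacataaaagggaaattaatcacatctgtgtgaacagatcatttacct
AGGTCA on either strand was found in 3 of the 9 promoter windows of the members (UGT1A6 has 2 windows), and in 12.1% of 35114 windows of the same length over all genes. UGT2B10, UGT2B11 and UGT2B15 are close in sequence, so these matches are not independent of each other.

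In the same windows on both strands, GCGTG, the core of the AHR site, was in one window of UGT1A6 and in that of UGT1A9 (32.2% of all windows), and TGACTCA, the AP-1 site, was in none (4.2% of all). CCAAT was present in 4 windows (32.0% of all) and TATAAA in 3 (10.7% of all). A match is a description of the letters alone and not evidence of binding.

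The listed genes for supply, hydrolysis and export around glucuronidation moved by less than 2-fold. Of the 8 genes for the supply of UDP-glucuronic acid and the hydrolysis of glucuronides, 1 passed an adjusted p of 0.05 as higher and 2 as lower, where 23.3% and 22.4% of all rows did, and 0 were called. GUSB, the lysosomal glucuronidase that removes glucuronic acid again, rose by 0.31 on the log2 scale (edgeR adjusted p = 0.00194). UGP2, which makes UDP-glucose, changed by -0.41 (edgeR adjusted p = 0.00104), and UGDH, which oxidises UDP-glucose to UDP-glucuronic acid, by -0.22 (edgeR adjusted p = 0.0267). SLC35D1, which carries UDP-glucuronic acid into the endoplasmic reticulum, had 0.17 (adjusted p = 0.0705). Of the 4 transporters that export glucuronides, 2 were higher and 1 was lower, all under 2-fold. ABCC3, which exports to the blood side, rose by 0.88 on the log2 scale (edgeR adjusted p = 7.87e-06), ABCG2 by 0.44 (adjusted p = 0.00232), and ABCC2, which exports into bile, changed by -0.25 (adjusted p = 0.0127).

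Of 22 listed receptors and transcription factors known at UGT promoters, 21 were tested. At an adjusted p of 0.05, 9 of them passed as higher and 4 as lower, beside 23.3% and 22.4% of all rows tested, and 0 were called. Their median log2 change was 0.16. The largest changes among those that passed were in ARNT, the partner of AHR, with 0.61 (adjusted p = 2.94e-05 in edgeR), CEBPA with 0.58 (adjusted p = 5.56e-05), CDX2, a factor of the intestinal epithelium, with 0.57 (adjusted p = 6.91e-05) and NR3C1, the glucocorticoid receptor, with 0.46 (adjusted p = 0.00401). HNF4A, a nuclear receptor of hepatocytes, had -0.06 and did not pass. NR1I2, which encodes the xenobiotic receptor PXR, was lower, with -0.34 (adjusted p = 0.0230 in edgeR), and NR1I3, which encodes CAR, had -0.31 (adjusted p = 0.303).

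**Figure D5:**
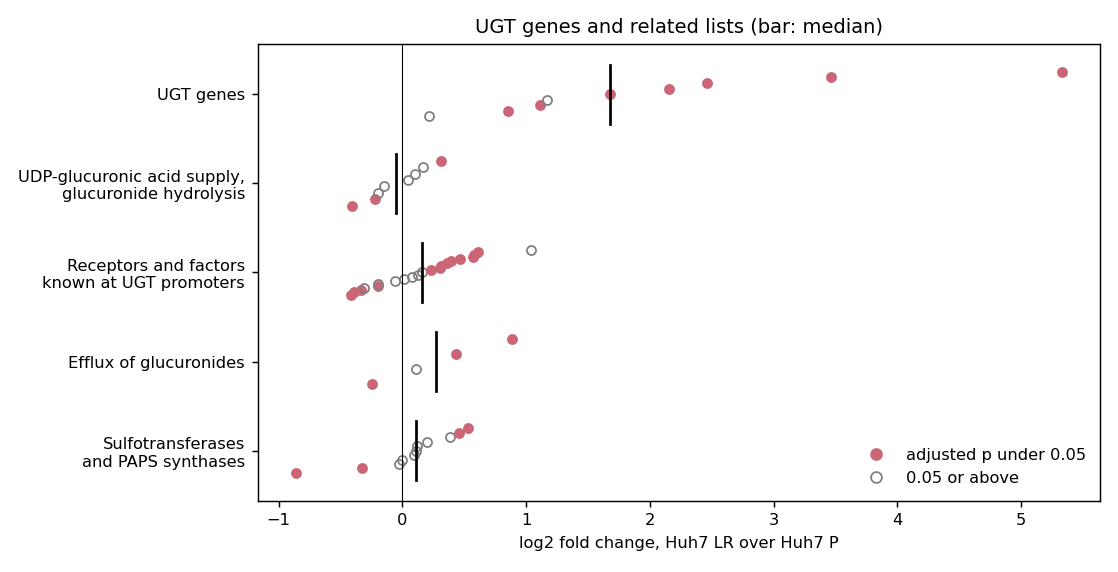
Fitted log2 fold change, Huh7 LR over Huh7 P, of each tested gene (point) in the UGT genes and 4 related lists, with the median of each list as a bar; filled points passed an adjusted p of 0.05 in edgeR. The median of the UGT genes was 1.68, and the medians of the other lists lay between -0.05 and 0.27.

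Of the 12 other UGT rows, 1 passed the filter on low counts. UGT8, which transfers galactose to ceramide and does not take part in glucuronidation, rose from 66.9 CPM to 89.7 CPM on average, or by 0.42 on the log2 scale (edgeR adjusted p = 0.00189). UGT1A3, UGT1A5, UGT2A2 and UGT3A2 had 0 counts in all libraries. UGT1A10, a form found mainly in the gut, was counted 51, 16 and 0 times in parental and 7, 0 and 2 times in resistant cells.

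The libraries held 62738937 to 71427573 counts, with overlapping ranges in the lines. All 10 hepatocyte markers listed were present, and their sum, mostly ALB and AFP, was 45044 to 54372 CPM in Huh7 P and 57728 to 60342 CPM in Huh7 LR. At an adjusted p of 0.05, 5 of them were higher and 0 lower, beside 23.3% and 22.4% of all rows tested. ALB rose by 0.74 on the log2 scale (edgeR adjusted p = 4.69e-05), whereas AFP had -0.23 and did not pass. FGB was called higher, with 2.49 (edgeR adjusted p = 1.52e-07). Markers of enterocytes, another cell type that expresses UGT genes, summed to 826 to 865 CPM in Huh7 P and 744 to 896 CPM in Huh7 LR, where FABP2 had 9 counts or fewer in each library. Of the other enterocyte markers, SI rose by 1.69 on the log2 scale (edgeR adjusted p = 9.20e-06) and was called higher. VIL1 changed by -0.25 (adjusted p = 0.0314) and CDH17 had 0.08 and did not pass. LCT rose by 2.55 (adjusted p = 0.00206) at low counts, 12, 10 and 9 in parental and 21, 93 and 75 in resistant libraries. By its Huh7 P libraries alone, LCT would not have passed the filter on low counts. The sums of biliary (235 to 261 against 199 to 224 CPM), fibroblast (2.27 to 2.40 against 5.12 to 8.22), leukocyte (62.4 to 67.7 against 10.1 to 14.0, mostly LYZ) and endothelial markers (38.8 to 47.5 against 65.0 to 71.2, nearly all PECAM1) also differed. At the same level and beside the same shares of all rows, 1 of 3 biliary markers tested was higher and 1 lower (KRT19, -2.07 on the log2 scale, edgeR adjusted p = 3.92e-07), 2 of 3 fibroblast markers and 2 of 2 endothelial markers tested were higher, and 1 of 3 leukocyte markers was lower. Of the endothelial markers, VWF had 8 counts or fewer in each Huh7 P library. It entered the test only through its counts in Huh7 LR, and CDH5 was not tested. Among the markers of these lists, 1 biliary (CFTR, 1.67 on the log2 scale) and 1 fibroblast marker (COL1A1, 1.84) were called higher. In the same lists, 1 biliary (KRT19) and 1 leukocyte marker (LYZ, -2.79) were called lower. The markers KRT7, DCN, TYROBP, HLA-DRA and CDH5 had 0 counts except for 3 of KRT7 in a single library. All other markers of the same lists had counts, such as up to 15 per library for PTPRC and 116 to 242 for CD14. The part of these shifts in the UGT values was not tested.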

How the data were processed

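Poly(A) RNA of 3 Huh7 P and 3 Huh7 LR samples was sequenced. The authors deposited, per gene and library, the number of reads (raw counts, not normalized) and an FPKM value scaled by them for length and depth. The submitters' processing notes name TopHat2, Cufflinks and DESeq, with no role, and the mouse build mm10. The identifiers are human, all 19974 annotated ones are in GENCODE release 29 (GRCh38), and the extraction text of the labels describes an insect. Strand and annotation are not given in the sources used here. A total of 34 lines of text were dropped, and 6210 loci without an annotated gene (2.86% to 3.35% of counts) were kept.

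The tests used edgeR 4.0.16 (R 4.3.3) on the raw counts: filterByExpr (minimum count 10, total 15), TMM factors of 0.977 to 1.03, no block, Benjamini-Hochberg adjustment over all rows tested. Standard errors come from the fold change and the F statistic. Sums replaced their rows before the fit. Tests were tested on simulated data. Alternatives were DESeq2 1.42.0 and its size factors, other filters, a replicate block, limma-trend (limma 3.58.1) on log2(FPKM + 0.1) and log2(FPKM + 1), other thresholds and each library left out. Transcripts were compared with Biopython 1.88, and figures drawn with matplotlib 3.10.9. All members are named. Other genes come from lists written from general knowledge, with the 4 largest changes named where more than 5 passed; UGT8, UGT1A10, HNF4A, NR1I2, NR1I3, SLC35D1 and the markers were named after their values were seen, as were the sulfotransferases that did not pass. Members and lists were chosen with earlier results of these data known. Some listed items are not reported here.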

Additional observations from a re-analysis of the deposited data

How the results depend on the processing

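Of 137 values of 10 leading results under the alternatives, 133 stayed the same, and of 123 values of 9 single genes 120 did. Staying the same meant keeping the direction and the side of an adjusted p of 0.05. Counts had to stay within 1.5 times, and the UGT1A share had to move by less than the larger SD of the lines. For single genes, loss or gain of a call was not part of this rule. The number of members called higher was 4 to 7 over 16 alternatives (5 with the Wald test of DESeq2 and with at least 10 counts in every library, both without UGT2B17; 4 with limma-trend on log2(FPKM + 1); 5 with log2(FPKM + 0.1) without a filter, where UGT2A3 had an adjusted p of 0.00109 and lost its call) and 0 were called lower in any of them. UGT2A3, UGT2B4, UGT2B7, UGT2B10, UGT2B11 and UGT2B15 stayed higher at an adjusted p under 0.05 in all 14 alternatives, and UGT2B17 in all 13 that tested it. With log2(FPKM + 1), the pseudocount shrank low genes, and UGT2B15, UGT2B11, UGT2B10 and UGT2B17 had 1.56, 1.24, 0.75 and 0.78. The number of all rows called, 1088, was 352 there (268 higher and 84 lower) and 473 with log2(FPKM + 0.1) without a filter (353 higher and 120 lower). With each library left out, the sum of the 3 UGT1A rows ranged from 0.15 to 0.59 and that of all UGT1A rows from 0.11 to 0.49. UGT1A1 ranged from -0.31 to 0.47 and UGT1A6 from -0.31 to 1.65, and UGT1A1 turned to -0.31 without Huh7 LR replicate 2 and UGT1A6 to -0.31 without Huh7 LR replicate 3. The cause was not tested. With the replicate number as a block, 783 rows were called higher and 316 lower, 6 members were called higher, and no call of a member changed. Same-numbered samples of the lines had correlations of deviations of 0.029 to 0.0317, each the highest for its sample but all under 0.1, so the numbers were not taken as pairs. At this depth the parental level of UGT2B17 rests on 8 counts.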

Other observations

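Sulfotransferases, which conjugate steroids, bile acids and phenols with sulfate and share substrates with the UGTs, were also counted. Of 11 genes listed with the synthases of the sulfate donor, 2 passed an adjusted p of 0.05 in edgeR as higher and 2 as lower, beside 23.3% and 22.4% of all rows tested, 0 were called, and the median log2 fold change was 0.11. SULT2A1, the enzyme for dehydroepiandrosterone and bile acids, was counted 5643, 5525 and 5852 times in parental and 7366, 8381 and 8285 times in resistant cells, with no overlap and a log2 change of 0.46 (edgeR adjusted p = 5.06e-04). SULT1C4, a form typical of the fetal liver, had 0.53 (adjusted p = 0.0357). SULT1E1, which acts on estrogens, was lower, with -0.32 (adjusted p = 0.0226). SULT1A3 fell from 1971, 1171 and 1920 counts to 937, 1019 and 876 counts, a log2 fold change of -0.86 (adjusted p = 6.29e-04 in edgeR), but has a near-identical copy in the genome, so that its count is uncertain. PAPSS1 and PAPSS2, which make the donor, had 0.12 and 0.00 and did not pass.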
